A study of Mus musculus with 9 samples.

Results

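The 7 genes described here encode enzymes that make and remove hydrogen sulfide in mammalian cells: *Sqrdl*, *Ethe1*, *Tst*, *Suox*, *Mpst*, *Cbs* and *Cth*. They are 7 of the 22068 genes listed in the count table, and were matched by name. The set was built around *Sqrdl*, which was chosen by its measured difference from control with eutherian *CRX* in these same libraries. Its values are therefore given as a description, with no test, and the other 6 genes were set beside it as the rest of its pathway. Of the 7 genes, 6 were among the 10100 genes that passed the filter on low values, a mean above 2 FPKM (the count scaled by exon length and library total) in at least 1 condition. *Cbs* did not pass, with a highest condition mean of 0.855 FPKM.

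The cells were primary mouse embryonic fibroblasts (MEFs) of strain C57Bl/6 at passage 2. Plasmids carrying a puromycin resistance gene were introduced by NEPA21 electroporation, with V5-tagged human *CRX* (eutherian *CRX*), V5-tagged opossum *CRX* (metatherian *CRX*) or no homeobox gene (control), so the control cells also carried the resistance gene and met the drug. Puromycin was kept on for 5 days; the labels place a recovery of 48 h after it, whereas the study's methods place 48 h between electroporation and the drug and an overnight culture after it. Poly-A RNA was sequenced in 3 libraries per condition, 9 in all, to ask how the transcriptome responds to each *CRX* orthologue. Nothing in the sources says that the 3 libraries of a condition came from separate transfections, so the p-values measure the spread between these libraries, which may be technical.

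Sulfide is oxidised in mitochondria. Sulfide quinone oxidoreductase, the product of *Sqrdl* (named *Sqor* in RefSeq), takes electrons from sulfide, passes them to ubiquinone and leaves a persulfide, usually on glutathione. The persulfide dioxygenase ETHE1 oxidises that product to sulfite, the rhodanese TST moves sulfur between sulfite, glutathione persulfide and thiosulfate, and sulfite oxidase SUOX turns sulfite into sulfate. Sulfide is made by the transsulfuration enzymes CBS and CTH, which also make cysteine from homocysteine, and by MPST, which takes sulfur from 3-mercaptopyruvate. CRX is a homeodomain transcription factor best known from photoreceptors.

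Total counts were 54145701 to 94699657 per library. Reads on mouse *Crx* were absent from the 3 control libraries, were 627, 995 and 313 counts with eutherian *CRX*, and were 4, 0 and 0 counts with metatherian *CRX*. The level of the opossum transgene was not analysed here. The libraries numbered 3 stood apart from the other two of their condition: over the kept genes, the SD of the log2 difference was 0.148 between eutherian libraries 1 and 2 and 0.885 between eutherian libraries 2 and 3. The contrast was smaller in control, at 0.243 and 0.444, and with metatherian *CRX*, at 0.254 and 0.573. The 10 fibroblast markers, led by *Fn1*, were detected throughout, with summed CPM (a count scaled by the library total) of 42421 to 48845 in control, 18601 to 39779 with eutherian *CRX* and 22849 to 44309 with metatherian *CRX*. Summed macrophage markers ran from 11.9 to 41.2 CPM in control, 5.17 to 23.2 with eutherian *CRX* and 5.13 to 11.0 with metatherian *CRX*. Skeletal muscle markers ran from 26.6 to 110.0, 15.3 to 33.2 and 16.0 to 29.3 CPM in the same order, epithelial markers from 0.718 to 3.68, 0.542 to 13.1 and 1.78 to 9.33 CPM, and endothelial markers from 12.6 to 16.8, 14.2 to 18.6 and 11.4 to 18.4 CPM, while hepatocyte markers reached 0.330 CPM at most, with *Ttr* at 0 counts in all 9 libraries. The part these shifts play in the results was not tested, and in bulk RNA fewer cells of a type and less RNA per cell cannot be told apart.

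*Sqrdl* lies on the forward strand at chr2:122764928-122809569 (GRCm38), with 13 exon intervals totalling 2861 bases. *Tst* (chr15:78399556-78405859, reverse strand) and *Mpst* (chr15:78406712-78414015, forward strand) are related sulfurtransferase genes that point away from each other across a gap of 852 bp. The other members are *Ethe1* at chr7:24587543-24608925, *Suox* at chr10:128669887-128673918, *Cbs* at chr17:31612623-31637233 and *Cth* at chr3:157894248-157925081. The exons of *Ethe1* overlap those of *Zfp575*, on the opposite strand, over 99 bp, and because the strand setting of the counting is not given in the sources used here, reads in that stretch cannot be assigned to one of the pair. No other member overlapped another listed gene.

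RefSeq (GRCm38.p6) gave promoter windows, 250 bases before to 50 after a start, for 5 of the 7 members, 8 windows in all. Upstream stretches are printed for *Sqrdl*, the member the set was built around, and for *Mpst*, whose stretch lies in the gap it shares with *Tst*. Both read 5′ to 3′ on the forward strand, with CG dinucleotides in capitals. The *Sqrdl* stretch is intronic in the deposited gene model: it lies between the first and second listed exon intervals, before an internal RefSeq start.
Sqrdl upstream: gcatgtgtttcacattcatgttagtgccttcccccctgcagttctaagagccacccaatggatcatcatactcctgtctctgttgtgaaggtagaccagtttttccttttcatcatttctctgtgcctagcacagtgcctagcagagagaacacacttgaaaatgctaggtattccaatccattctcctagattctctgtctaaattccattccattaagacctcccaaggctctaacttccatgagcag
Mpst upstream: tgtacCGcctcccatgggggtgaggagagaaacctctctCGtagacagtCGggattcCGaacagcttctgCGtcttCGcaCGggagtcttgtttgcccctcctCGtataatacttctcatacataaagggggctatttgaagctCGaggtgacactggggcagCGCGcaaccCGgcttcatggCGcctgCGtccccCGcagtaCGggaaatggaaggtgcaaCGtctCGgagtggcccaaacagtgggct
The *Sqrdl* stretch, at chr2:122771463-122771712, held 0 CG dinucleotides and 44.4% G and C, against 18 and 58.0% in the *Mpst* stretch at chr15:78406462-78406711. Of 3 motifs searched on both strands, the CRX site TAATCC was in 0 of the 8 member windows and 7.06% of 32851 mouse windows, and the ATF4 and C/EBP composite TGATGNAAT was in 0 of 8 and 0.965%. The NRF2 element core TGACNNNGC was in 1 of the 8 windows, chr15:78406551-78406850 of *Mpst*, and in 12.4% of all windows. It lay 12 bases before the RefSeq start that this window surrounds, 1 of 3 such *Mpst* windows. Both that start and the match lie downstream of the first base of *Mpst* given above, outside the gap shared with *Tst*. These matches and absences describe the letters of these windows alone.

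*Sqrdl*, the first oxidation step, was the most abundant member by length-scaled level, and was higher with each *CRX* orthologue than in control within every replicate number. *Sqrdl* was measured at 83.3, 84.7 and 42.8 CPM in the control libraries, scaled by trimmed means (TMM). With eutherian *CRX* it stood at 127.3, 123.7 and 74.7 CPM. With metatherian *CRX* it stood at 123.9, 129.4 and 73.6 CPM. In each condition libraries 1 and 2 lay close together and library 3 well below, so the lowest treated library fell within the control range and the groups overlapped. The mean was 70.3 ± 23.8 CPM (SD, n = 3) for control, 108.5 ± 29.4 for eutherian *CRX* and 109.0 ± 30.8 for metatherian *CRX*.

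Within replicate numbers, the *Sqrdl* log2 differences from control with eutherian *CRX* were 0.61, 0.55 and 0.80 for replicates 1, 2 and 3, and with metatherian *CRX* they were 0.57, 0.61 and 0.78. The edgeR fit, with the replicate number as a block, gave a log2 fold change of 0.65 (SE 0.09) with eutherian *CRX*, a 1.57-fold higher level, and of 0.65 (SE 0.09) with metatherian *CRX*, also 1.57-fold. Both differences were set against the same 3 control libraries. Without replicate 3 of every condition these became 0.58 and 0.59. Between the orthologues the log2 difference was 0.0017 (SE 0.09), with differences of -0.04, 0.06 and -0.02 by replicate.

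**Figure D1:**
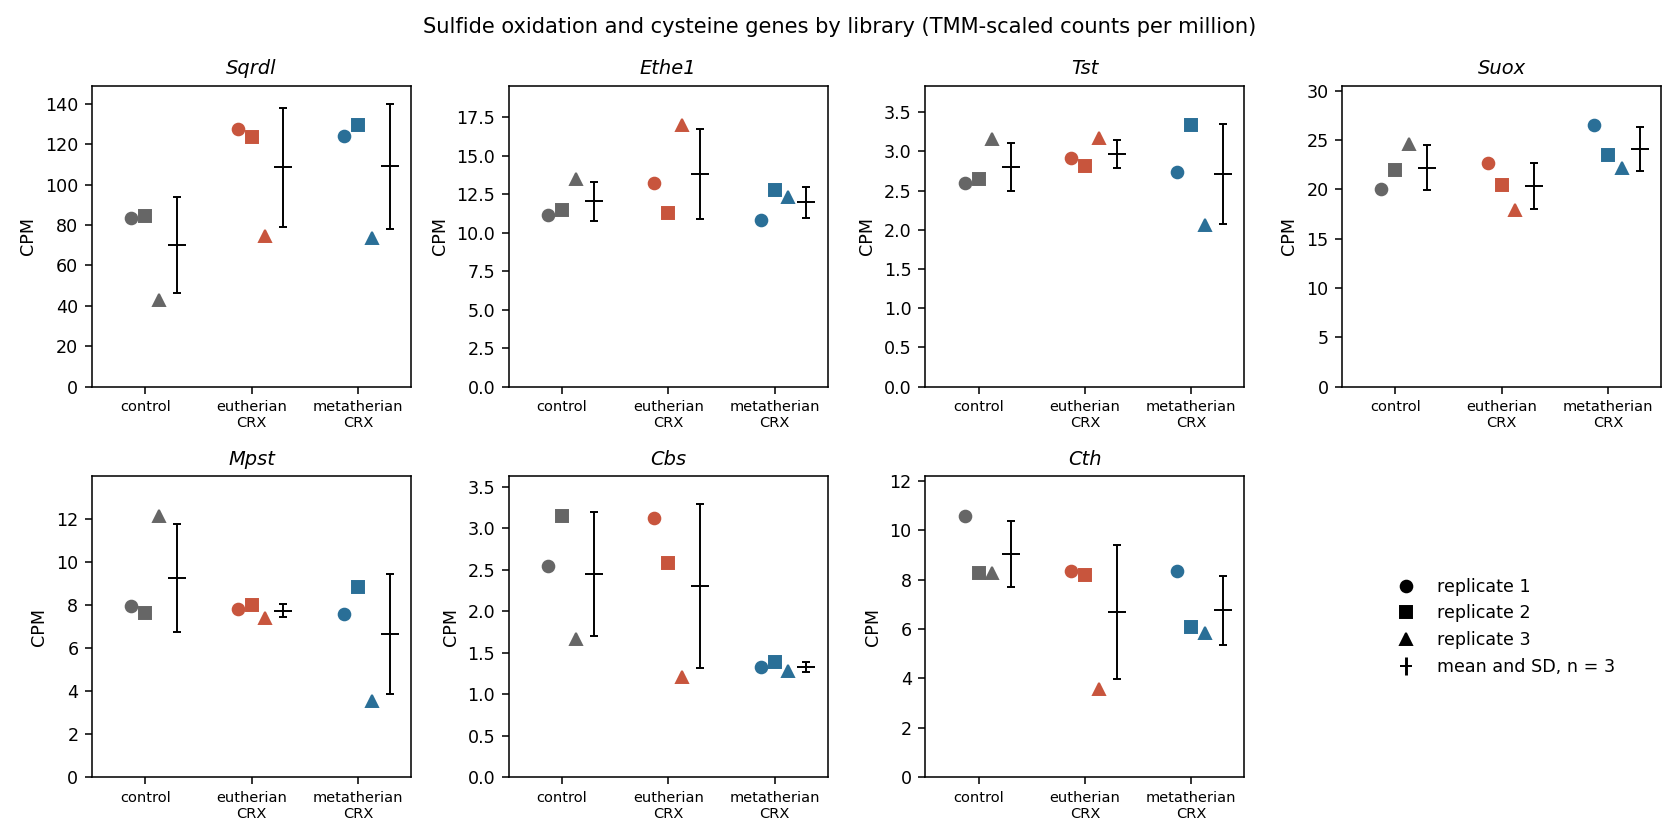
Level of each of the 7 genes in each of the 9 libraries, in TMM-scaled CPM on axes that start at 0. Symbols mark the replicate number and bars give the mean and SD of the 3 libraries of a condition; *Sqrdl* is lowest in replicate 3 of every condition and higher than control within each replicate number, and *Cbs* with metatherian *CRX* lies at 1.28 to 1.39 CPM, below every control library.

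For *Ethe1*, the persulfide dioxygenase of the second oxidation step, no difference passed the test. It stood at 11.2, 11.5 and 13.5 CPM in control, 13.2, 11.3 and 17.0 with eutherian *CRX* and 10.8, 12.8 and 12.3 with metatherian *CRX*. The highest level was in eutherian library 3, and the 3 groups overlapped. The log2 fold change was 0.19 (SE 0.15, 95% interval -0.17 to 0.55, edgeR adjusted p = 0.809) with eutherian *CRX* and -0.0029 (SE 0.15, -0.36 to 0.36, edgeR adjusted p = 0.995) with metatherian *CRX*; the sign of the latter depended on the scaling and the filter. *Ethe1* was 0.19 lower on the log2 scale with metatherian than with eutherian *CRX* (log2 fold change -0.19, SE 0.15, edgeR adjusted p = 0.682).

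*Tst*, the mitochondrial rhodanese, was the lowest of the 6 kept members per length, at a mean of 2.55 FPKM. It stood at 2.60, 2.65 and 3.16 CPM in control, 2.91, 2.82 and 3.17 with eutherian *CRX* and 2.74, 3.34 and 2.06 with metatherian *CRX*, from 134 to 249 counts per library. Metatherian libraries 2 and 3 were the highest and the lowest of all 9. Its log2 fold change was 0.08 (SE 0.23, -0.47 to 0.63, edgeR adjusted p = 0.965) with eutherian *CRX* and -0.05 (SE 0.23, -0.61 to 0.50, edgeR adjusted p = 0.921) with metatherian *CRX*. Between the orthologues it was -0.14 (SE 0.23, edgeR adjusted p = 0.869).

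*Suox*, the molybdenum enzyme that makes sulfate, had the smallest SD over the 9 libraries relative to its mean CPM of the 7 genes. The levels were 20.0, 22.0 and 24.6 CPM in control, 22.7, 20.4 and 17.9 with eutherian *CRX* and 26.5, 23.5 and 22.2 with metatherian *CRX*. Groups overlapped in every comparison, and metatherian exceeded eutherian *CRX* within all 3 replicate numbers. That difference was 0.24 on the log2 scale (SE 0.14, -0.10 to 0.59, edgeR adjusted p = 0.566). Against control the log2 fold changes were -0.13 (SE 0.14, -0.48 to 0.21, edgeR adjusted p = 0.875) with eutherian and 0.11 (SE 0.14, -0.23 to 0.45, edgeR adjusted p = 0.708) with metatherian *CRX*.

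Among the enzymes that release sulfide, *Mpst* stood at 7.97, 7.64 and 12.1 CPM in control, 7.80, 8.00 and 7.40 with eutherian *CRX* and 7.57, 8.84 and 3.52 with metatherian *CRX*. Replicate 3 held both its highest value, in control, and its lowest, with metatherian *CRX*, while the other 7 libraries lay between 7.40 and 8.84 CPM. The log2 fold change was -0.28 (SE 0.36, -1.12 to 0.57, edgeR adjusted p = 0.906) with eutherian and -0.52 (SE 0.37, -1.39 to 0.35, edgeR adjusted p = 0.477) with metatherian *CRX*. The replicate differences behind the latter were -0.08, 0.21 and -1.78, and without replicate 3 of every condition it was 0.07. Between the orthologues it was -0.24 (SE 0.36, edgeR adjusted p = 0.844).

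*Cth*, cystathionine gamma-lyase, was lower with each orthologue than in control in 3 of 3 replicate pairs, but within the spread between libraries. It stood at 10.6, 8.27 and 8.26 CPM in control, 8.36, 8.18 and 3.56 with eutherian *CRX* and 8.37, 6.08 and 5.84 with metatherian *CRX*. The treated libraries numbered 1 overlapped the control range, and the lowest value was again in eutherian library 3. The log2 fold change was -0.49 (SE 0.25, -1.09 to 0.10, edgeR adjusted p = 0.684) with eutherian *CRX*, where replicates gave -0.34, -0.02 and -1.21, and -0.43 (SE 0.25, -1.02 to 0.16, edgeR adjusted p = 0.384) with metatherian *CRX*, where they gave -0.34, -0.44 and -0.50. The orthologues differed by 0.06 (SE 0.25, edgeR adjusted p = 0.948), and without replicate 3 of every condition the eutherian log2 fold change was -0.18.

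*Cbs*, cystathionine beta-synthase, was the lowest member per length, at 83 to 285 counts per library, and was tested in a separate fit of the 14599 genes that passed edgeR's filterByExpr alone. It stood at 2.54, 3.15 and 1.67 CPM in control, 3.13, 2.58 and 1.21 with eutherian *CRX* and 1.33, 1.39 and 1.28 with metatherian *CRX*. All 3 metatherian libraries lay below all 3 control libraries, whereas the eutherian and control ranges overlapped. With metatherian *CRX* the log2 fold change was -0.80 (SE 0.30, -1.49 to -0.10, unadjusted p = 0.0296 and adjusted p = 0.197, edgeR), lower in 3 of 3 pairs. In that fit, in the same comparison, 0.0137% of genes passed the adjusted threshold, 20.4% had an unadjusted p under 0.05, 23.9% had groups that did not overlap and 47.7% moved one way in all 3 pairs. Without replicate 3 of every condition the *Cbs* log2 fold change was -1.06 (edgeR adjusted p = 0.0119), the one of 18 alternatives that passed the threshold, under which 23.2% of all genes in that fit were called, and the adjusted p ran up to 0.734 in the others. With eutherian *CRX* it was -0.11 (SE 0.29, -0.79 to 0.57, edgeR adjusted p = 0.950), and metatherian lay below eutherian *CRX* by a log2 fold change of -0.69 (SE 0.30, edgeR adjusted p = 0.431), which was -1.07 (edgeR adjusted p = 0.0120) without replicate 3 of every condition, where 22.3% of all genes in that fit were called.

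**Figure D2:**
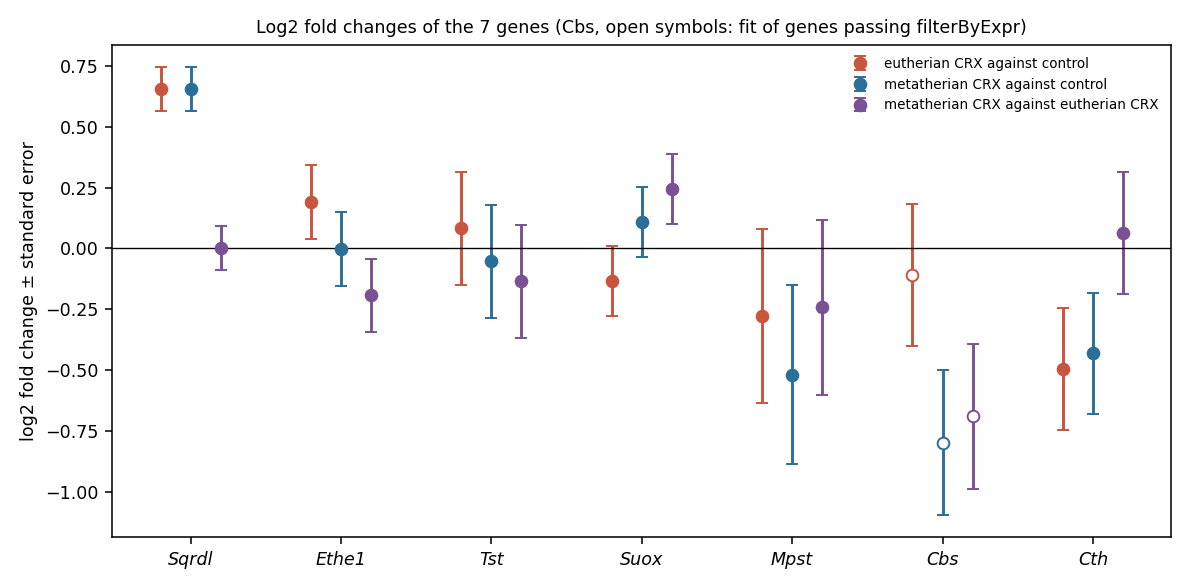
Log2 fold change with its standard error for each of the 7 genes in the 3 comparisons, from the edgeR fit with the replicate number as a block. *Sqrdl* lies at 0.65 in both comparisons with control and at 0.0017 between the orthologues, while the 5 other kept genes lie between -0.52 and 0.24; open symbols mark *Cbs*, from the separate fit.

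Over the 5 kept members other than *Sqrdl*, 0 were called in any of the 3 comparisons by the quasi-likelihood test of edgeR (Benjamini-Hochberg adjusted over 10100 genes), 0 had an unadjusted p under 0.05, 0 had groups that did not overlap, and DESeq2 called 0. With eutherian *CRX* against control the same test called 61 of all kept genes, 0.604%, while 8.56% had an unadjusted p under 0.05 and 14.0% did not overlap. With metatherian *CRX* the shares were 0.0297%, 19.5% and 23.3%. Between the orthologues they were 0%, 11.5% and 11.5%. The members that moved one way in all 3 pairs were *Tst* and *Cth* with eutherian *CRX*, against 33.4% of all genes, *Cth* with metatherian *CRX*, against 47.4%, and *Suox* between the orthologues, against 32.2%. The median log2 fold change of these 5 genes was -0.13, -0.05 and -0.14 in the 3 comparisons, and that of all kept genes 0.0013, -0.0080 and -0.0054.

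On a scale per length, *Sqrdl* had the highest level of the 7 genes. Its mean over the 9 libraries was 33.1 FPKM, followed by *Suox* at 9.33, *Ethe1* at 8.45, *Cth* at 4.04, *Mpst* at 4.03, *Tst* at 2.55 and *Cbs* at 0.726 FPKM. Neighbours in that order overlapped between libraries for *Suox* and *Ethe1*, for *Cth* and *Mpst*, and for *Mpst* and *Tst*. The lowest *Sqrdl* library, at 14.6 FPKM, lay above the highest *Suox* library, at 10.7, *Ethe1* always exceeded *Cth*, and *Tst* never fell to the level of *Cbs*. *Sqrdl* made up 49.9, 50.3 and 30.6% of the summed FPKM of the 7 genes in control, 58.9, 60.3 and 48.1% with eutherian *CRX* and 59.0, 60.0 and 50.6% with metatherian *CRX*.

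The ratio of *Sqrdl* to *Ethe1*, the first oxidation step over the second, moved with *Sqrdl*. It was 3.88, 3.82 and 1.64 in control, 4.99, 5.70 and 2.28 with eutherian *CRX* and 5.95, 5.26 and 3.10 with metatherian *CRX*. It exceeded control within every replicate number, and library 3 was the lowest of each condition. Because *Sqrdl* was chosen by its change, no test is given for this ratio.

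**Figure D3:**
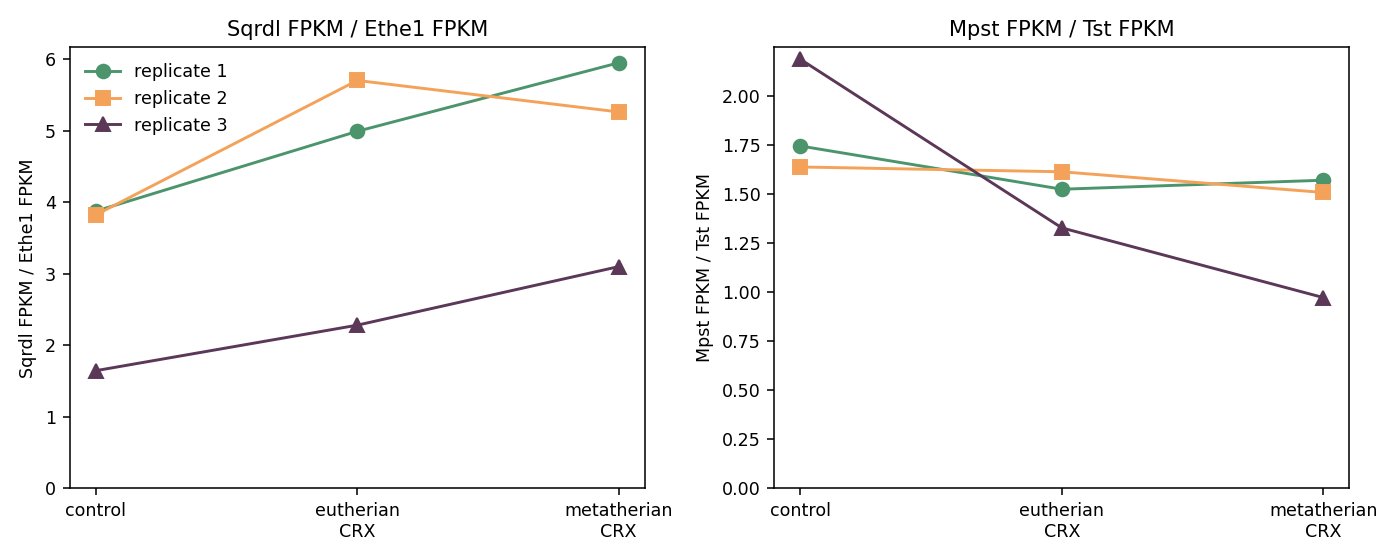
Ratios of FPKM within each library, *Sqrdl* over *Ethe1* on the left and *Mpst* over *Tst* on the right, with lines joining libraries of the same replicate number across the 3 conditions. The left ratio rises from control to either *CRX* in all 3 replicate numbers, from 1.64 to 2.28 and 3.10 in replicate 3; the right ratio is 1.51 to 1.75 in replicates 1 and 2 and falls from 2.19 to 0.973 in replicate 3.

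The libraries numbered 3 often held the extreme values. *Sqrdl*, *Cbs* and *Cth* were lowest in replicate 3 in all 3 conditions, a pattern that 13.1% of the kept genes shared, and 13.3% of the kept genes were highest there. For *Sqrdl*, library 3 lay below the mean of the others by log2 differences of -0.97 (control), -0.75 (eutherian *CRX*) and -0.78 (metatherian *CRX*). *Ethe1* went the other way, at 0.25, 0.48 and 0.07, and *Mpst* turned from 0.64 in control to -1.21 with metatherian *CRX*. What sets replicate 3 apart was not tested.

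Pearson correlations of log2 CPM between members were taken across the 9 libraries, which share the 3 conditions and the replicate numbers. *Tst* and *Mpst*, the divergent pair on chromosome 15, had an r of 0.84, *Cbs* and *Cth* of 0.66, and *Ethe1* and *Cth* of -0.81. The first fell to 0.47 without metatherian library 3, and the last was -0.40 without eutherian library 3. *Sqrdl* had r between -0.36, with *Ethe1*, and 0.21, with *Cbs*, but single libraries decided this range. Without control library 3 its r was 0.59 with *Suox*, 0.56 with *Mpst* and 0.50 with *Tst*, and without metatherian library 3 it was -0.67 with *Mpst*. The genes most like *Sqrdl* over the 9 libraries, by the same measure, were *Mdga2* (r = 0.98), *Timp1*, a metalloproteinase inhibitor (0.97), *Dcaf11*, a ubiquitin ligase adaptor (0.97), *Sri*, the calcium-binding protein sorcin (0.97), and *Ptchd1* (0.96). Like *Sqrdl*, each was lowest in library 3 of every condition, which picking genes by this correlation favours. *Timp1*, for example, stood at 1190, 1275 and 772 CPM in control, 1553, 1377 and 1063 with eutherian *CRX* and 1681, 1696 and 1049 with metatherian *CRX*.

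The genes beside *Sqrdl* on chromosome 2 were compared with it, 3 kept genes on each side. *AA467197*, which starts at -128 kb relative to the start of *Sqrdl*, was higher in every treated library than in any control library. It stood at 1.80, 1.51 and 1.78 CPM in control, 2.69, 2.48 and 6.45 with eutherian *CRX* and 4.07, 4.78 and 4.80 with metatherian *CRX*. The difference from control was 1.09 on the log2 scale (SE 0.32, edgeR adjusted p = 0.361) with eutherian *CRX* and 1.43 (SE 0.32, edgeR adjusted p = 0.102) with metatherian *CRX*, and the groups did not overlap in either comparison. *Slc30a4*, a zinc transporter at -83.7 kb, had log2 fold changes of 0.45 (SE 0.23, edgeR adjusted p = 0.684) and 0.84 (SE 0.23, edgeR adjusted p = 0.131), with no overlap in the second. The eutherian value of *Slc30a4* came mostly from replicate 3, with differences by replicate of -0.11, 0.27 and 1.20. *Bloc1s6*, the nearest gene, at -26.4 kb and encoding a subunit of a lysosome-related organelle complex, had 0.18 and 0.29 (edgeR adjusted p = 0.762 and 0.234). On the far side *Sema6d*, *Myef2* and *Dut* start 1325, 2317 and 2482 kb downstream, with 0.33, -0.03 and 0.17 for eutherian *CRX* and 1.08, -0.07 and 0.12 for metatherian *CRX*. The eutherian value of *Sema6d*, a semaphorin, rested on library 3: it stood at 8.40, 10.1 and 23.2 CPM in control, 6.38, 8.58 and 62.3 with eutherian *CRX* and 15.5, 22.6 and 54.4 with metatherian *CRX*, so that replicates 1 and 2 differed from control by -0.40 and -0.23 on the log2 scale and replicate 3 by 1.42. None of the 6 neighbours was called by edgeR. An unadjusted p under 0.05 was found for 1 of the 6 with eutherian *CRX*, against 8.56% of all kept genes, and for 4 with metatherian *CRX*, against 19.5%. Groups that did not overlap were found for 2 of the 6 in each comparison with control, against 14.0% of all kept genes with eutherian and 23.3% with metatherian *CRX*. The second with eutherian *CRX* was *Dut*, which encodes dUTPase, at 25.1, 25.1 and 24.6 CPM in control and 27.0, 28.0 and 29.3 with eutherian *CRX*.

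**Figure D4:**
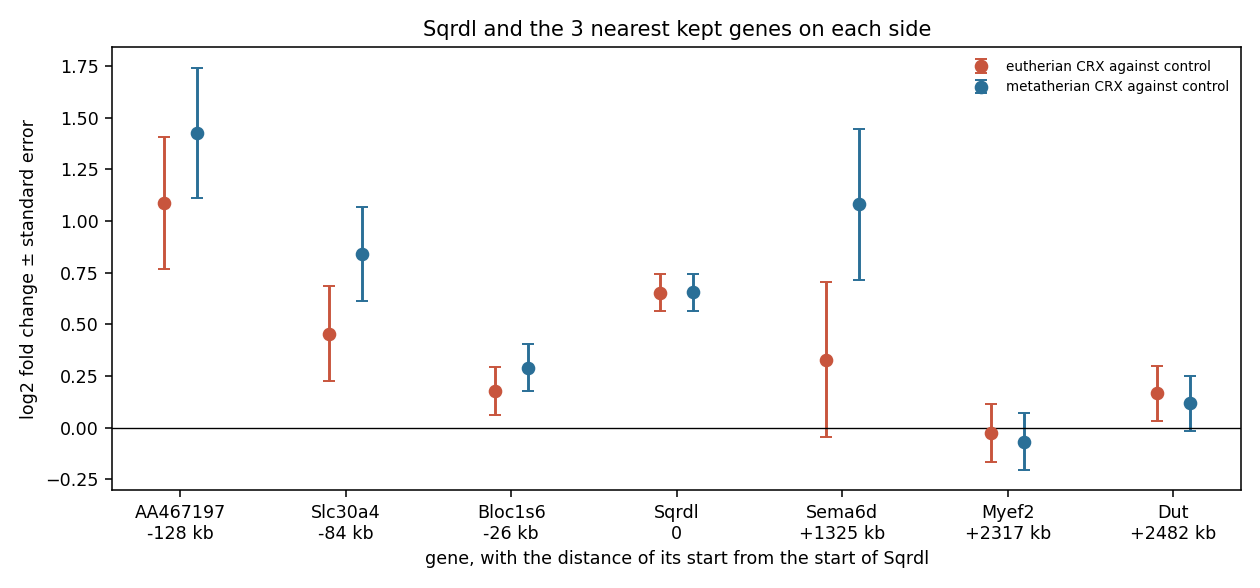
Log2 fold change with its standard error against control for *Sqrdl* and the 3 nearest kept genes on each side, in order along the chromosome, with the distance in kb of each start from that of *Sqrdl*. *AA467197* at -128 kb lies above *Sqrdl*, at 1.09 and 1.43, while *Bloc1s6* at -26 kb lies below it, at 0.18 and 0.29.

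The genes around the pathway were followed in 8 lists with 82 genes, of which 66 were kept. By edgeR 0 of 66 were called in any comparison. At an unadjusted p under 0.05, 4 were higher and 3 lower with eutherian *CRX*, 8 higher and 7 lower with metatherian *CRX*, and 5 higher and 1 lower with metatherian against eutherian *CRX*, where the shares over all kept genes were 8.56%, 19.5% and 11.5%. The medians of the 66 log2 fold changes were 0.06, 0.02 and -0.06. DESeq2 called *Chac1* with eutherian *CRX*, and 6 genes with metatherian *CRX*: *Chac1*, which was lower, and *Gclc*, *Gss*, *Gpd2*, *Hspd1* and *Tomm20*, which were higher. Between the orthologues it called *Aox1*, *Gclc*, *Gpd2* and *Tomm20*, all higher with metatherian *CRX*. These were 1.52%, 9.09% and 6.06% of the 66 genes, where DESeq2 called 3.30%, 9.94% and 3.14% of all kept genes. Without replicate 3 of every condition edgeR called 1 of the 66 genes with eutherian *CRX*, 13 with metatherian *CRX* and 15 between the orthologues. These shares, 1.52%, 19.7% and 22.7%, stood beside 3.43%, 22.3% and 22.6% of all kept genes called under that setting. Without eutherian library 3 alone it called *Cdo1*, *Chac1*, *Gclc*, *Gpd2* and *Gss* with metatherian *CRX*, and *Aox1* and *Gclc* between the orthologues, where 8.79% and 3.46% of all kept genes were called. Without metatherian library 3 alone it called *Chac1* with each orthologue, *Gpd2* and *Gss* with metatherian *CRX*, and *Aox1* and *Tomm20* between the orthologues, where the shares of all kept genes were 1.13% with eutherian *CRX*, 4.79% with metatherian *CRX* and 1.46% between the orthologues.

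In the list of cystine import and glutathione synthesis, which draws on cysteine, 6 of 7 genes were kept and their median log2 fold change was -0.04 with eutherian and -0.09 with metatherian *CRX*. *Chac1*, which degrades glutathione, stood at 15.4, 14.8 and 10.9 CPM in control, 8.90, 8.45 and 5.38 with eutherian *CRX* and 10.2, 8.25 and 3.98 with metatherian *CRX*. Every treated library lay below every control library, and the log2 fold changes were -0.88 (SE 0.19, edgeR adjusted p = 0.151) and -0.95 (SE 0.19, edgeR adjusted p = 0.0869). *Gclc*, the catalytic subunit of the first glutathione synthesis step, stood at 67.5, 76.0 and 68.8 CPM in control, 62.0, 62.1 and 93.5 with eutherian *CRX* and 103.8, 128.2 and 112.5 with metatherian *CRX*. Its metatherian libraries lay above all others, with log2 fold changes of 0.02 (SE 0.16, edgeR adjusted p = 0.992) with eutherian and 0.69 (SE 0.16, edgeR adjusted p = 0.108) with metatherian *CRX*. *Gss*, the second synthesis step, had 0.41 (SE 0.17, edgeR adjusted p = 0.572) and 0.59 (SE 0.17, edgeR adjusted p = 0.141).

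Cysteine itself can be oxidised instead of passing to sulfide, and *Cdo1*, cysteine dioxygenase, had the lowest log2 fold change of the 9 genes of cysteine oxidation and other cysteine use. It stood at 120.8, 89.4 and 76.4 CPM in control, 65.5, 91.1 and 5.29 with eutherian *CRX* and 43.4, 24.3 and 20.1 with metatherian *CRX*. Metatherian libraries lay below all control libraries, and eutherian library 3 was the lowest of all. The log2 fold change was -1.23 (SE 0.72, edgeR adjusted p = 0.740) with eutherian and -1.78 (SE 0.69, edgeR adjusted p = 0.230) with metatherian *CRX*. The latter was called by edgeR with only the 6 libraries compared (adjusted p = 0.0192), where 398 of the 10100 kept genes were called. Without eutherian library 3 it was called too (edgeR adjusted p = 0.0143), beside 8.79% of all kept genes. The same held without replicate 3 of every condition (edgeR adjusted p = 0.00701), beside 22.3%. DESeq2, which called 9.94% of all kept genes in this comparison, did not call *Cdo1*. At the other end of this list *Nfs1*, the cysteine desulfurase that feeds iron-sulfur clusters, had 0.22 (edgeR adjusted p = 0.558) and 0.25 (edgeR adjusted p = 0.197).

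Ubiquinone accepts the electrons of SQR. Of the other ubiquinone-reducing enzymes, *Gpd2*, the mitochondrial glycerol-3-phosphate dehydrogenase, stood at 80.3, 79.6 and 92.4 CPM in control, 96.3, 92.2 and 91.3 with eutherian *CRX* and 117.9, 121.3 and 126.3 with metatherian *CRX*. The metatherian libraries lay above all others, with a log2 fold change of 0.54 (SE 0.09, edgeR adjusted p = 0.0722), against 0.15 (SE 0.09, edgeR adjusted p = 0.744) with eutherian *CRX*. *Dhodh*, of pyrimidine synthesis, was highest of this list with eutherian *CRX* at 0.31, and *Etfb*, of electron transfer flavoprotein, was lowest with both, at -0.06 and -0.31. Of the 10 kept ubiquinone synthesis genes, *Adck4* was lowest at -0.24 and -0.51 and *Coq4* highest at 0.17 and 0.16. Replicate 3 gave most of both *Adck4* values. Its differences by replicate were 0.04, -0.04 and -0.65 with eutherian and -0.16, -0.16 and -1.19 with metatherian *CRX*.

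In the remaining lists none of the extremes was called by edgeR in the fit of all 9 libraries. Of the 6 kept methionine cycle genes *Mtrr* was highest with eutherian *CRX* at 0.17 and *Mat2a* with metatherian *CRX* at 0.20. Of 8 rhodanese-domain and thiol-disulfide genes *Glrx*, glutaredoxin, was highest at 0.56 and 0.26, and *Tstd3* lowest at -0.05 and -0.11. Of 8 genes of the molybdenum cofactor, on which SUOX depends, and of molybdenum enzymes, *Mocos* was highest at 0.33 and 0.51, and *Mocs3* was lowest with metatherian *CRX* at -0.42. *Aox1*, aldehyde oxidase, was lowest with eutherian *CRX* at -0.53 (SE 0.18, edgeR adjusted p = 0.444) but stood at 0.44 (SE 0.18, edgeR adjusted p = 0.236) with metatherian *CRX*, a difference between the orthologues of 0.98 (SE 0.18, edgeR adjusted p = 0.267). Of 10 mitochondrial mass genes the range was from -0.18, *Tomm20*, to 0.24, *Phb*, with eutherian and from -0.18, *Tomm40*, to 0.38, *Hspd1*, with metatherian *CRX*. The value of *Tomm40* came from replicate 3, with differences by replicate of 0.09, 0.0073 and -0.74, and so did those of *Tstd3* and *Etfb* with eutherian *CRX*, which lay below control in replicate 3 only, at -0.68 and -0.38. Replicate 3 also gave the largest difference for other extremes. With eutherian *CRX* the differences by replicate were 0.02, 0.08 and 0.42 for *Mtrr* and 0.04, 0.17 and 0.75 for *Mocos*. For *Glrx* with metatherian *CRX* they were -0.07, 0.08 and 0.78. Without replicate 3 of every condition edgeR called, of the genes named here, *Mocos*, *Aox1*, *Hspd1* and *Tomm20* with metatherian *CRX*, all higher than control. Between the orthologues it called *Aox1*, *Hspd1* and *Tomm20*, higher with metatherian *CRX*, and *Glrx*, which was lower. Other genes of these lists were called too. Among them *Txn2* was higher with metatherian *CRX* in both comparisons. Between the orthologues *Slc25a10* was also higher, and *Mocs2* and *Marc2* were lower. The shares of all kept genes called were 22.3% and 22.6%. The list medians lay between -0.06 and 0.15 with eutherian and between -0.09 and 0.14 with metatherian *CRX*.

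**Figure D5:**
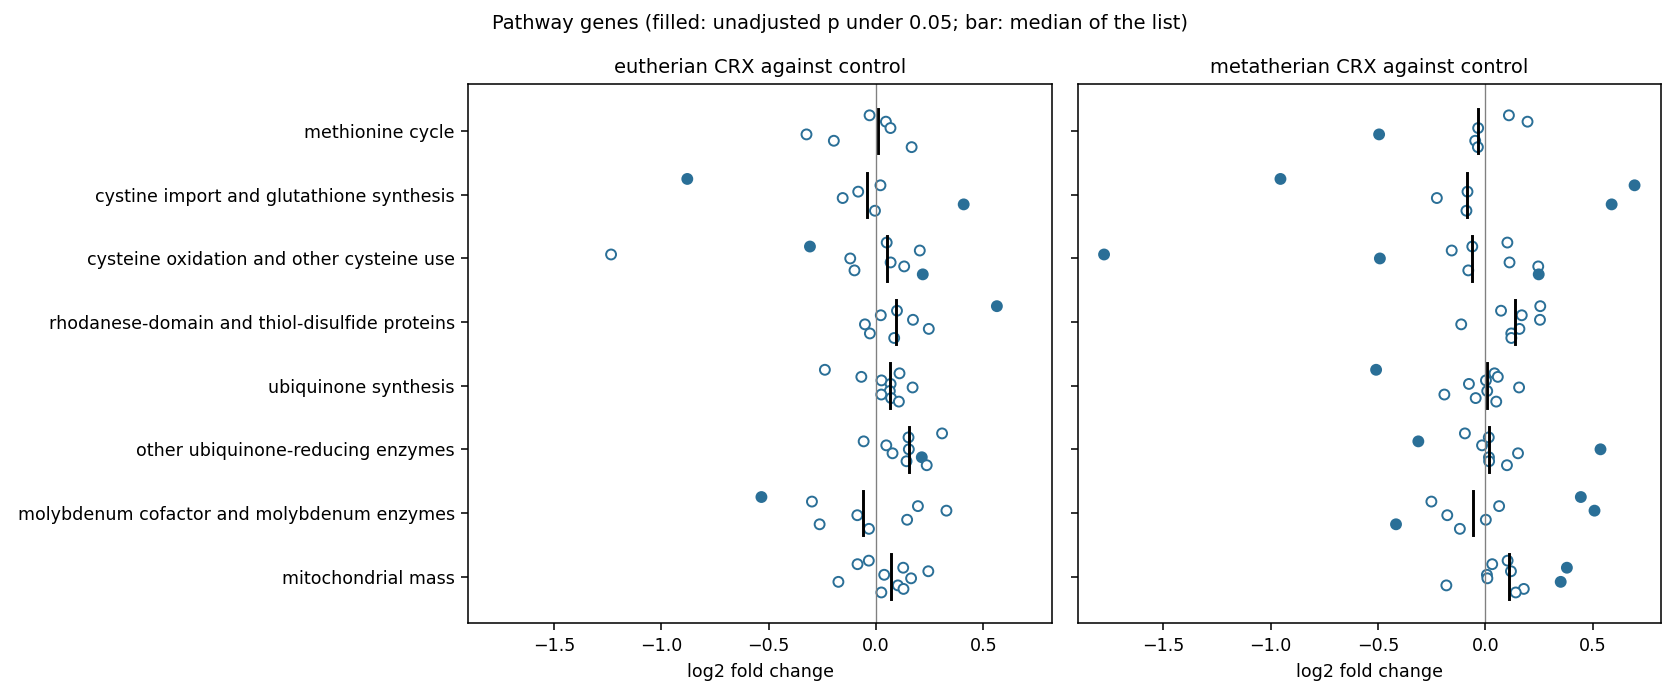
Log2 fold changes of the 66 kept pathway genes by list, with eutherian *CRX* against control on the left and metatherian *CRX* against control on the right. Each circle is a gene, filled where the unadjusted p is under 0.05, and the bar is the median of the list; *Chac1* at -0.88 and -0.95 and *Cdo1* at -1.23 and -1.78 are the lowest genes.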

How the data were processed

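The deposited values were raw counts per gene, made by the authors with STAR alignment to mm10 (GRCm38) and featureCounts, as the study's methods and the labels state; the strand setting is not given in the sources used here. The authors' own fold changes were not used. The 7 genes and all gene lists were chosen with earlier results of these data known.

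Counts from all 9 libraries were fitted with edgeR 4.0.16 in R 4.3.3 (TMM factors, quasi-likelihood F test, replicate number as a block, since the study describes its samples as prepared in pairs). Genes passed filterByExpr and a mean above 2 FPKM in at least 1 condition, where FPKM was computed here from counts, library totals and exon length. P-values were adjusted by Benjamini-Hochberg over 10100 genes, with calls at adjusted p under 0.05. *Cbs* was tested among the 14599 genes passing filterByExpr. CPM were scaled by TMM. The 54145701 to 94699657 counts per library set the counting precision; the spread between libraries was larger. The script was tested on simulated counts. The named genes were all members, the highest and lowest kept gene of each list against control, any called list gene, the 3 nearest kept neighbours on each side of *Sqrdl*, and the 5 genes correlating best with it; *Gss*, *Aox1* with metatherian *CRX*, and the genes called only by DESeq2 (1.42.0) or with libraries left out were named after their values were seen. Alternatives changed the block, scaling, filter, test and libraries. One result that this rule names is not reported here.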

Additional observations from a re-analysis of the deposited data

How the results depend on the processing

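The number of kept members called, apart from *Sqrdl*, was 0 in each of the 3 comparisons under all 19 alternatives, and the log2 fold change of *Sqrdl* stayed between 0.58 and 0.71 with eutherian and between 0.59 and 0.70 with metatherian *CRX*. Counts over all genes depended on the setting, and the cause was not tested. With eutherian *CRX* the 61 genes called became 0 without the replicate block, 333 with DESeq2, 109 with no filter and 0 with only the 6 libraries compared, and ran from 0 to 346 with libraries left out. With metatherian *CRX* the 3 genes called became 0 without the replicate block, 1004 with DESeq2 and 398 with only the 6 libraries compared, and ran from 0 to 2252 with libraries left out. Between the orthologues 0 became 317 with DESeq2 and ran from 0 to 2280 with libraries left out; each highest count came without replicate 3 of every condition. Calls in the pathway lists, 0 in both comparisons with control, became 1 with DESeq2 and ran from 0 to 1 with libraries left out for eutherian *CRX*, and became 6 with DESeq2 and 2 with only the 6 libraries compared, and ran from 0 to 13 with libraries left out for metatherian *CRX*: 5 without eutherian library 3 and 3 without metatherian library 3. Between the orthologues, where these alternatives were chosen after seeing the data, 0 became 4 with DESeq2 and ran from 0 to 15 with libraries left out: 15 without replicate 3 of every condition, and 2 each without eutherian or metatherian library 3.

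The block changed no call of a member. Deviations from the condition means correlated above 0.1 in 8 of 9 library pairs with the same number (r from 0.0034 to 0.75) and in 5 of 18 pairs with different numbers (r up to 0.72). Libraries numbered 3 correlated with each other at 0.69, 0.46 and 0.27, and with those numbered 1 or 2 always below 0, from -0.73 to -0.014. Between libraries numbered 1 and 2, r ran from -0.17 to 0.72, so the numbers 1 and 2 were not shown to pair the libraries.

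Log2 fold changes of members other than *Sqrdl* changed sign under some settings, none of them past the threshold, and they included *Mpst* with metatherian *CRX*, at -0.52 in the reported fit. *Ethe1* with metatherian *CRX* became 0.0050 with RLE factors, 0.0050 with DESeq2, 0.019 with filterByExpr alone and 0.027 with no filter. With libraries left out the ranges for eutherian *CRX* against control were -0.015 to 0.25 (*Tst*), -0.28 to 0.029 (*Suox*), -0.52 to 0.21 (*Mpst*) and -0.37 to 0.13 (*Cbs*). For metatherian *CRX* against control they were -0.13 to 0.093 (*Ethe1*), -0.25 to 0.21 (*Tst*), -0.034 to 0.26 (*Suox*) and -0.90 to 0.069 (*Mpst*). Between the orthologues they were -0.34 to 0.099 (*Tst*), -0.56 to 0.17 (*Mpst*) and -0.23 to 0.34 (*Cth*). The 95% intervals of the members other than *Sqrdl* reached from 0.34 (*Suox*) to 0.87 (*Mpst*) on the log2 scale to either side of the estimate.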
